A study of Mus musculus with 15 samples.

Results

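Igf1, its receptor Igf1r and the 6 binding protein genes Igfbp2 to Igfbp7 were followed in mouse optic nerve after crush. They were taken by gene symbol, 8 of the 14237 genes listed in the expression table, and all 8 were among the 14194 genes tested. The ligand was 20.1-fold higher after crush with AAV-null than after sham surgery, and the binding proteins changed unequally: Igfbp4, Igfbp7 and Igfbp2 were higher in both crush groups, Igfbp3 was higher on average with overlapping libraries, and Igfbp5 and Igfbp6, the most abundant of them, did not pass the test. The receptor Igf1r was lower after crush. None of the 8 genes passed the test between AAV-CNTF and AAV-null after crush.

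Insulin-like growth factor 1 is a secreted peptide that acts through Igf1r, a receptor tyrosine kinase that signals by way of insulin receptor substrates, PI3K and AKT, and it supports the growth and survival of neurons and oligodendrocytes. In tissue most of the ligand is held by IGF binding proteins, which can withhold it from the receptor, carry it, or release it when proteases cut them. The classical members bind IGFs with high affinity, while the protein of Igfbp7 binds them weakly. In injured nervous tissue, microglia and infiltrating macrophages are known sources of Igf1.

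The nerves came from adult C57BL/6J mice, and every eye had received an adeno-associated virus in the vitreous. The crush AAV-CNTF group received AAV2 with a secretable form of ciliary neurotrophic factor, a cytokine used to promote regrowth of retinal axons, and its nerves were crushed. The crush AAV-null group had the same injury after AAV2 with no transgene, and the sham AAV-null group had that empty virus and an exposed but uncrushed nerve. Crush followed injection by 2 weeks and collection followed crush by 7 days; the labels give no times for sham. The transgene was delivered in the eye and not in the nerve, and no group combined CNTF with sham surgery, so crush AAV-CNTF and sham differ in both virus and injury. Each group had 5 biological replicates, numbered 2 to 6, and 1 nerve RNA library was sequenced per replicate, 15 in all.

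Each library held between 19856688 and 29558293 expected counts over the listed genes. On the first principal component of log2 CPM (33.5% of variance) the 10 crush libraries had scores of -47.2 to -20.3 and the sham libraries of 54.8 to 87.0. Crush AAV-null replicate 6 stood apart on the second component, at 99.7 against -24.0 to 9.0 for the other 14 libraries, and 3.18% of genes were at 0 in it. Without that library, 5 of the 8 genes passed between crush AAV-null and sham instead of 6, and the gene lost was Igfbp3. Defining optic nerve markers were present: the oligodendrocyte gene Mbp averaged 11130 CPM in crush AAV-CNTF, 13050 CPM in crush AAV-null and 30120 CPM in sham, and the astrocyte gene Gfap averaged 3093, 3092 and 4299 CPM in the same groups.

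The sequence before the start site is shown for the 4 genes that were higher in both crush groups than in sham, because these moved in the same direction after crush. All 8 genes matched a RefSeq promoter window (GRCm38.p6) of 250 bases before and 50 bases after an annotated start site. Printed are the 250 bases before the start site of Igfbp2, the first of its 2 windows (chr1:72824230-72824479, plus strand), of Igfbp4 (chr11:99040994-99041243, plus strand) and of Igfbp7 (chr5:77408046-77408295, minus strand), each free of annotated exons in GENCODE M21. The Igf1 window lay inside a 5′ exon of other annotated Igf1 transcripts, so only 30 bases of it are given (chr10:87861061-87861090, plus strand). Capitals mark letter matches to any of 7 motifs on either strand, and positions are counted back from the start site.
Igf1, bases -50 to -21: aggagctggaactTGAATCActattctgga
Igfbp2: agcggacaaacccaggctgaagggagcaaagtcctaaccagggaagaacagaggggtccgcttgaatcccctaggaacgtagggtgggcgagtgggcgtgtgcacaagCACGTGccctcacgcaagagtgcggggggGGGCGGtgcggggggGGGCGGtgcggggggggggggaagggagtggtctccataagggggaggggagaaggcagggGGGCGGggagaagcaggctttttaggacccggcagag
Igfbp4: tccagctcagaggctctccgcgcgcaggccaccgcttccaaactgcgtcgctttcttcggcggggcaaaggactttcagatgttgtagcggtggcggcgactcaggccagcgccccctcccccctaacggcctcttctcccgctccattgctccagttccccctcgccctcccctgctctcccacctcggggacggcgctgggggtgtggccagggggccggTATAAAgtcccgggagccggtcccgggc
Igfbp7: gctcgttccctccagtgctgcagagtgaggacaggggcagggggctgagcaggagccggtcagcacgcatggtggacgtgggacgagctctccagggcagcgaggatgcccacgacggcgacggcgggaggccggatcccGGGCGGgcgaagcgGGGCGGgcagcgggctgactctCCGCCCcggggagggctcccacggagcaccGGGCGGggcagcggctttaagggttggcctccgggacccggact
In the Igf1 stretch the capitals are a TGANTCA match, the letters of an AP-1 site, beginning at -37, and 7.8% of all 32851 RefSeq windows hold such a match. In Igfbp2 they are 3 GC boxes (GGGCGG, in 35.7% of windows) at -113, -98 and -37 and an E-box (CACGTG, in 7.2%) at -142. Igfbp7 held 4 GC boxes, at -110, -96, -74 and -44, and Igfbp4 a TATA box (TATAAA, in 13.6%) at -28. No motif was in all 4 genes: GC boxes stood in 2 of them, the second Igfbp2 window held a TGANTCA match at -39, and neither TTCNNNGAA, the palindrome bound by STAT factors (8.3% of windows), nor TTGCNNAA, a partial C/EBP site (10.8%), was in any window of the 8 genes. The seventh motif searched, CCAAT (37.4%), was in the unprinted part of the Igf1 window, at -142, and in Igfbp6. The stretches before Igfbp2, Igfbp4 and Igfbp7 were 67.2%, 69.2% and 74.0% G or C, and the median over all whole windows was 52.7%. These features were not particular to genes that rose. The stretch before Igf1r, which fell, was 77.6% G or C and held GC boxes at -43 and -26. Those before Igfbp3, Igfbp5, Igf1 and Igfbp6 were 73.2%, 58.8%, 52.8% and 49.6% G or C. These matches are descriptions of letters, not evidence that a factor binds.

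Levels of 1 gene across libraries are given in CPM, read counts scaled to library size by the TMM method. Between crush AAV-null and sham AAV-null, 5 of the 8 genes were higher and 1 lower at an adjusted p under 0.05, where 27.6% of all tested genes passed, 14.7% higher and 12.9% lower. The libraries of these groups did not overlap for 5 of the 8 (Igf1, Igf1r, Igfbp2, Igfbp4 and Igfbp7), and for 20.6% of all tested genes. The median log2 fold change of the 8 was 1.08, and that of all tested genes 0.005. Between crush AAV-CNTF and sham AAV-null, 4 were higher and 1 lower, where 31.3% of genes passed, 17.0% higher and 14.3% lower, with a median of 0.69 for the 8 and 0.005 for all genes. The libraries did not overlap there for 4 of the 8 (Igf1, Igf1r, Igfbp4 and Igfbp7), and for 23.0% of all tested genes. These comparisons share the sham libraries, so the values of each are given side by side and not as separate evidence. On the log2(FPKM + 1) scale, tested with limma, the calls split differently, with 2346 genes higher and 862 lower in crush AAV-null than in sham (2087 and 1825 from counts) and 2573 higher and 1007 lower in crush AAV-CNTF than in sham (2406 and 2031 from counts). The median log2 fold change of all genes was 0.16 on that scale in each of these comparisons. In whole nerve RNA, more cells of a type and more RNA per cell cannot be told apart.

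**Figure D1:**
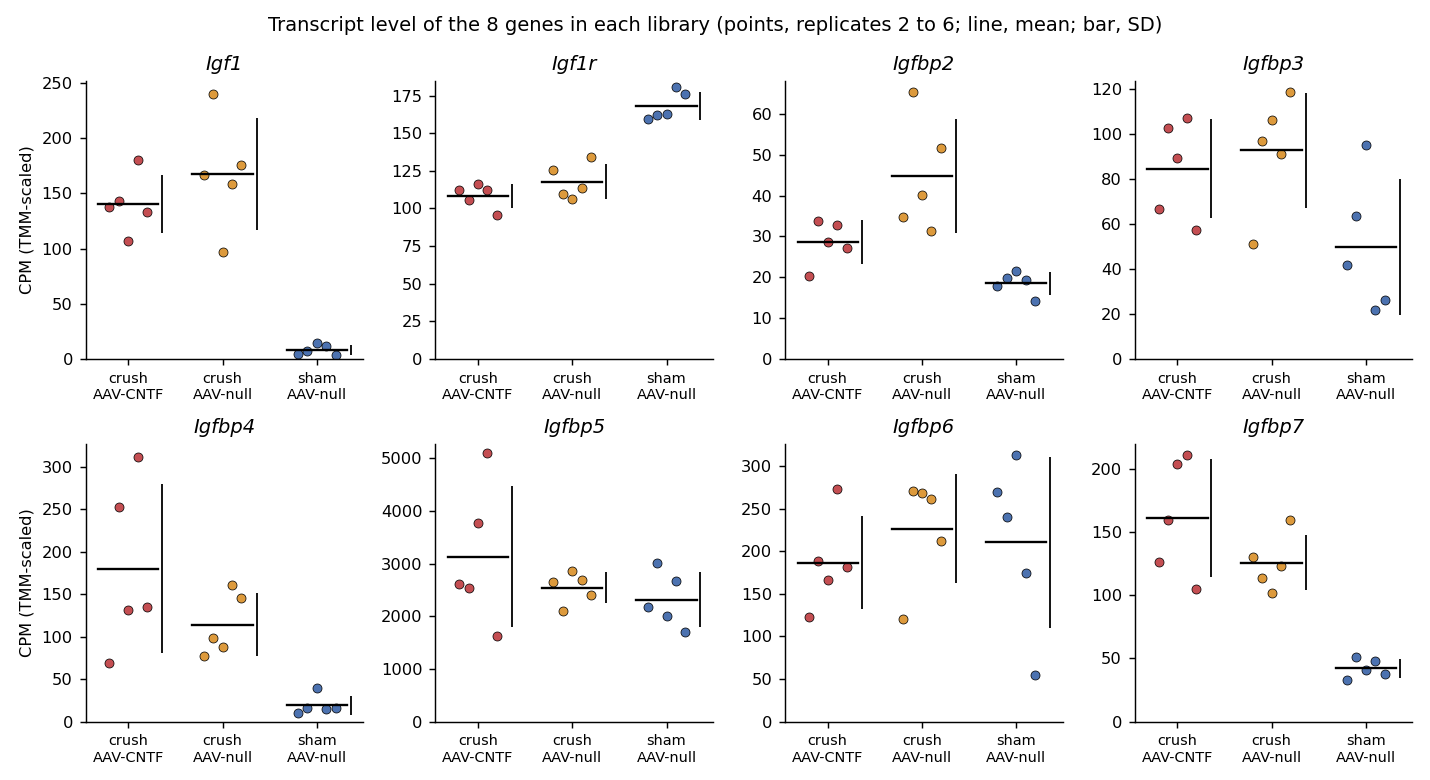
Level of each of the 8 genes in every library, in TMM-scaled CPM on linear axes from 0; points are replicates 2 to 6 of crush AAV-CNTF, crush AAV-null and sham AAV-null from left to right, lines are means and bars 1 SD. Igf1, Igfbp4 and Igfbp7 stand higher in both crush groups than in any sham library, Igf1r stands lower, and the groups overlap for Igfbp3, Igfbp5 and Igfbp6.

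The ligand changed most. Igf1 (chr10:87858265-87937042, plus strand, GENCODE M21) was at 137, 143, 107, 179.7 and 133 CPM in the crush AAV-CNTF libraries and at 166, 239.8, 96.9, 158 and 176 CPM in crush AAV-null, against 4.66, 7.38, 14.1, 11.8 and 3.97 CPM in sham AAV-null. Every crush library was above every sham library, and the crush groups overlapped each other. The mean was 140.0 ± 26.1 CPM in crush AAV-CNTF, 167 ± 51.0 in crush AAV-null and 8.38 ± 4.44 in sham (SD, n = 5 each). Igf1 was 20.1-fold higher in crush AAV-null than in sham (log2 fold change 4.33 ± 0.31 SE, 95% interval 3.69 to 4.96, edgeR adjusted p = 2.205e-09). In crush AAV-CNTF it was 16.8-fold higher than in sham (log2 fold change 4.07 ± 0.30 SE, adjusted p = 5.476e-09). The exact permutation test over libraries gave 0.007937 for each, the smallest two-sided p that 5 against 5 allows, in a family of 24 tests of these genes.

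Markers of microglia and phagocytes moved with Igf1 between crush and sham. Of 14 listed markers, 13 were higher in crush AAV-null than in sham, beside 14.7% of all tested genes. In crush AAV-CNTF 12 were higher than in sham, beside 17.0%. The summed level of the 14 markers was 3055 to 4625 CPM in crush AAV-CNTF, 3899 to 6802 CPM in crush AAV-null and 1077 to 1449 CPM in sham. No marker of the list was absent from the table. Within crush AAV-null, the library highest in Igf1 (replicate 3) also had the highest marker sum, 6802 CPM, and the library lowest in Igf1 (replicate 4) the lowest, 3899 CPM. Crush AAV-null replicate 6, next to replicate 3 in Igf1 at 176 CPM, had a sum of 4951 CPM. That was below replicates 2 (5852 CPM) and 5 (5046 CPM). Among sham nerves replicate 4 was highest in both, at 14.1 CPM for Igf1 and 1449 CPM for the sum. Sham replicate 5, next in Igf1 at 11.8 CPM, had the lowest sham sum, 1077 CPM. Within crush AAV-CNTF the orders also differed: replicate 5, highest in Igf1 at 179.7 CPM, had the lowest sum, 3055 CPM. The highest sum there, 4625 CPM, was in replicate 6. Of the microglial genes, P2ry12 did not pass in crush AAV-null against sham (log2 fold change -0.06, edgeR adjusted p = 0.8091), while Tmem119 (0.87, adjusted p = 0.0009258) and Cx3cr1 (1.32, adjusted p = 1.229e-07) rose. The part of these cells in the rise of Igf1 was not tested.

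The Igf1 level per unit length depended on the isoform estimate. FPKM divides a count by gene length and library depth, and count and FPKM together imply the length used. For Igf1 that length was 3.04, 2.45, 2.90, 3.84 and 2.61 kb in crush AAV-CNTF and 2.28, 2.52, 2.41, 2.66 and 1.81 kb in crush AAV-null, against 2.10, 1.72, 6.87, 6.88 and 6.87 kb in sham. Sham replicates 4, 5 and 6 therefore stood apart from all other libraries, and those lengths lay near the longest of the 8 annotated Igf1 transcripts, which span 510 to 7052 bases. The ratio of the highest to the lowest length was 4.01 for Igf1, above that of 94.0% of 10788 genes with at least 50 counts in each library, whose median was 1.53. Sham libraries held only 95, 160, 303, 220 and 98 Igf1 counts. In FPKM, Igf1 was at 47.4, 61.9, 38.6, 49.3 and 50.3 in crush AAV-CNTF and 74.9, 103, 42.8, 60.2 and 98.5 in crush AAV-null, against 2.04, 3.79, 1.95, 1.61 and 0.54 in sham. On this scale the mean was 38.2-fold higher in crush AAV-null than in sham, against 20.1-fold from counts, so folds of Igf1 are read here from counts. For Igfbp4 the length was 1.501 kb in sham replicate 3 and 3.44 to 3.66 kb in the other 14 libraries, and for Igf1r it ran from 7.87 to 11.2 kb.

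**Figure D2:**
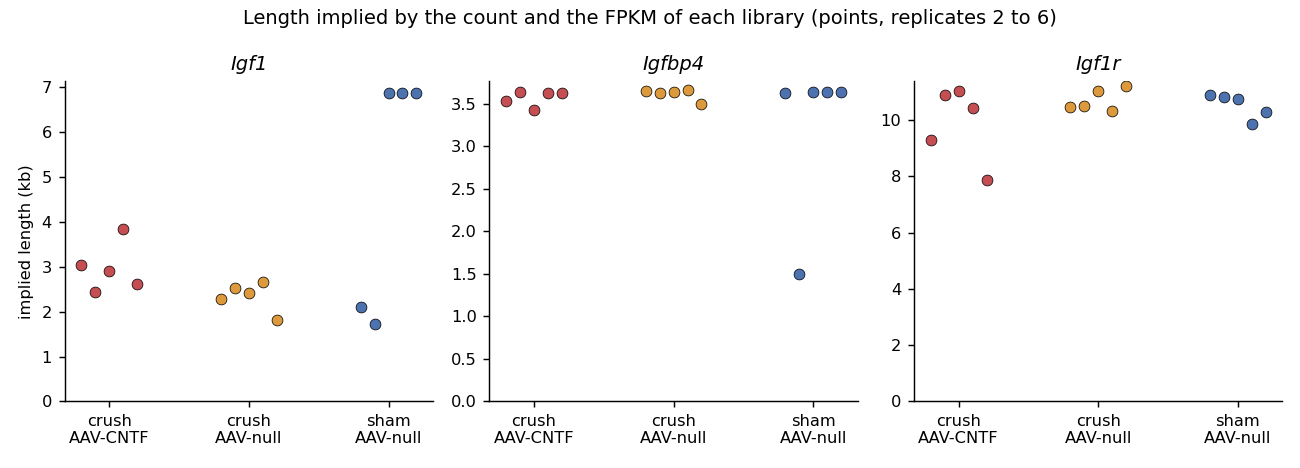
Length in kb implied by the expected count and the FPKM of each library for Igf1, Igfbp4 and Igf1r, on linear axes from 0, with crush AAV-CNTF, crush AAV-null and sham AAV-null from left to right and replicates 2 to 6 as points. For Igf1, 3 sham libraries lie at 6.87 to 6.88 kb and all other libraries at 1.72 to 3.84 kb.

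The receptor went the other way, by a smaller amount. Igf1r (chr7:67952827-68233668, plus strand) was at 112, 105, 116, 113 and 95.4 CPM in crush AAV-CNTF and at 126, 109.6, 106, 114 and 134 CPM in crush AAV-null, against 159.5, 162, 163, 180.4 and 176 CPM in sham. All 10 crush libraries were below all 5 sham libraries. Igf1r was 0.700 times the sham level in crush AAV-null (log2 fold change -0.51 ± 0.09 SE, 95% interval -0.70 to -0.33, edgeR adjusted p = 0.0001645). In crush AAV-CNTF it was 0.644 times the sham level (log2 fold change -0.64 ± 0.09 SE, adjusted p = 1.314e-05). On FPKM values with a pseudocount of 1, tested with limma, the change was -0.34 on the log2(FPKM + 1) scale in each comparison and missed the threshold (adjusted p = 0.06034 for crush AAV-null and 0.0565 for crush AAV-CNTF), although the FPKM ranges still did not overlap. All genes together had a median of 0.16 on that scale. Markers of mature oligodendrocytes were lower with it: all 10 were lower in each crush group than in sham, with a summed level of 17740 to 25490 CPM in crush AAV-CNTF and 21590 to 30160 CPM in crush AAV-null, against 51240 to 65070 CPM in sham. Astrocyte markers were lower too, 8 of 10 in crush AAV-null and 6 of 10 in crush AAV-CNTF, with sums of 5443 to 6766 CPM in crush AAV-CNTF and 4964 to 6613 CPM in crush AAV-null, against 8238 to 9148 CPM in sham. Over all tested genes 12.9% were lower in crush AAV-null and 14.3% in crush AAV-CNTF than in sham. The part of oligodendrocytes and astrocytes in the fall of Igf1r was not tested.

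Igfbp4 rose most among the binding proteins. Its protein is known mainly as an inhibitor of IGF action that is relieved by the protease PAPP-A. Igfbp4 (chr11:99041244-99054392, plus strand) was at 69.1, 253, 131, 312 and 135 CPM in crush AAV-CNTF and at 77.3, 98.5, 88.0, 161 and 146 CPM in crush AAV-null, against 10.4, 16.0, 39.2, 14.96 and 15.75 CPM in sham. Every crush library was above every sham library, and crush AAV-CNTF spread more widely than crush AAV-null. It was 5.92-fold higher in crush AAV-null than in sham (log2 fold change 2.56 ± 0.37 SE, 95% interval 1.79 to 3.34, edgeR adjusted p = 2.077e-05) and 9.33-fold higher in crush AAV-CNTF than in sham (log2 fold change 3.22 ± 0.38 SE, adjusted p = 1.481e-06). The crush AAV-CNTF libraries highest in Igfbp4, replicates 3 and 5, also had the highest summed level of 12 fibroblast and meningeal markers, 9868 and 11710 CPM, against 4383 to 8089 CPM in the other crush AAV-CNTF libraries. That sum was 4973 to 8184 CPM in crush AAV-null and 2053 to 6032 CPM in sham, where replicate 4, highest in Igfbp4, was also highest at 6032 CPM. Within crush AAV-null the order of libraries was the same for both, while in the other groups it differed. Sham replicate 6, lowest in the sum, had 15.75 CPM of Igfbp4, and sham replicate 2, lowest in Igfbp4, had a sum of 4652 CPM. Pericyte and smooth muscle markers were also highest in crush AAV-CNTF replicates 3 and 5, with sums of 640 and 799 CPM. All 12 fibroblast and meningeal markers were in the table. The part of these cell types in the level of Igfbp4 was not tested.

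Igfbp7 also rose in every crush library. Its protein is deposited around blood vessels and binds CD93 on endothelial cells. Igfbp7 (chr5:77349240-77408041, minus strand) was at 126, 159.7, 203, 211 and 104.5 CPM in crush AAV-CNTF and at 130.2, 114, 102, 123 and 159.5 CPM in crush AAV-null, against 33.0, 50.9, 41.2, 47.8 and 37.7 CPM in sham. The lowest crush library was at 102 CPM and the highest sham library at 50.9 CPM. Igfbp7 was 2.99-fold higher in crush AAV-null than in sham (log2 fold change 1.58 ± 0.18 SE, 95% interval 1.21 to 1.95, edgeR adjusted p = 9.617e-07) and 3.82-fold higher in crush AAV-CNTF than in sham (adjusted p = 7.156e-08). Of 10 endothelial markers, 1 was higher (Cdh5) and 2 lower (Egfl7 and Flt1) in crush AAV-null than in sham, with summed levels of 327 to 387 CPM in crush AAV-null and 294 to 378 CPM in sham, which overlapped. In crush AAV-CNTF against sham 2 were higher (Cdh5 and Kdr) and 2 lower (Flt1 and Slco1a4), with a sum of 289 to 604 CPM in crush AAV-CNTF. The shares over all tested genes were 14.7% higher and 12.9% lower in crush AAV-null, and 17.0% and 14.3% in crush AAV-CNTF. The part of endothelial cells in the level of Igfbp7 was not tested.

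Igfbp2 rose after crush and was the gene with the lowest p between the viruses. Its protein is abundant in brain and cerebrospinal fluid and carries an integrin-binding motif. Igfbp2 (chr1:72824503-72852474, plus strand) was at 20.4, 33.8, 28.7, 32.9 and 27.2 CPM in crush AAV-CNTF and at 34.9, 65.5, 40.2, 31.3 and 51.7 CPM in crush AAV-null, against 17.9, 19.9, 21.6, 19.3 and 14.1 CPM in sham. Crush AAV-null lay wholly above sham, while 1 crush AAV-CNTF library, replicate 2, lay within the sham range. It was 2.41-fold higher in crush AAV-null than in sham (log2 fold change 1.27 ± 0.20 SE, 95% interval 0.86 to 1.68, edgeR adjusted p = 4.811e-05) and 1.54-fold higher in crush AAV-CNTF than in sham (log2 fold change 0.62 ± 0.20 SE, adjusted p = 0.01864). That second call was lost without crush AAV-CNTF replicate 3 (adjusted p = 0.05264) or without sham replicate 6 (adjusted p = 0.05597).

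Igfbp3 was higher after crush with overlapping libraries. Its protein is the main carrier of IGFs in blood. Igfbp3 (chr11:7206086-7213923, minus strand) was at 67.0, 103, 89.5, 107 and 57.3 CPM in crush AAV-CNTF and at 51.1, 97.2, 106.5, 91.1 and 119 CPM in crush AAV-null, against 41.8, 63.7, 95.3, 21.8 and 26.4 CPM in sham. Sham replicates 3 and 4 lay within the range of both crush groups. The 1.87-fold difference between crush AAV-null and sham passed in edgeR (log2 fold change 0.90 ± 0.31 SE, 95% interval 0.26 to 1.55, adjusted p = 0.03446), while the exact permutation test over libraries gave p = 0.05556. DESeq2 gave an adjusted p of 0.05325, the authors' deposited table gives 0.1328, and the edgeR call was lost without any of crush AAV-null replicates 3 to 6 or of sham replicates 2, 5 and 6 (adjusted p up to 0.09117). In crush AAV-CNTF the difference from sham did not pass (log2 fold change 0.77 ± 0.31 SE, adjusted p = 0.06568). It passed with the replicate number as a block (adjusted p = 0.02584), under limma-voom (0.01641) and on FPKM with a pseudocount of 1 (0.02548) or 0.1 (0.02699). It also passed without crush AAV-CNTF replicate 6 (0.04625) or without sham replicate 4 (0.003765).

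Igfbp5 and Igfbp6, the binding proteins with the highest levels, did not pass in any comparison. The protein of Igfbp5 binds extracellular matrix, and that of Igfbp6 prefers IGF2 over IGF1. Igfbp5 (chr1:72857932-72874884, minus strand) was at 2612, 2539, 3773, 5105 and 1634 CPM in crush AAV-CNTF and at 2656, 2110.0, 2869, 2698 and 2409 CPM in crush AAV-null, against 2185, 3005, 2010.0, 2679 and 1704 CPM in sham. The groups overlapped, with the highest and the lowest library both in crush AAV-CNTF. The log2 difference of crush AAV-null from sham was 0.14 ± 0.21 SE (95% interval -0.31 to 0.59, adjusted p = 0.6954) and that of crush AAV-CNTF from sham 0.44 ± 0.22 SE (adjusted p = 0.1368), which passed without crush AAV-CNTF replicate 6 (0.60, adjusted p = 0.01971). Igfbp6 (chr15:102144362-102149511, plus strand) was at 123, 188, 166, 273 and 181 CPM in crush AAV-CNTF and at 120.3, 270.5, 268.5, 262 and 212 CPM in crush AAV-null, against 269, 239.8, 313, 174 and 55.3 CPM in sham. The widest spread was within sham, where replicate 6, the lowest, also had the lowest fibroblast and meningeal marker sum, 2053 CPM. The log2 difference of crush AAV-null from sham was 0.11 ± 0.31 SE (95% interval -0.54 to 0.76, adjusted p = 0.8438) and turned to -0.14 without that library.

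CNTF after crush was tested against the empty virus after crush. By edgeR 0 of the 8 genes passed, where 8 genes in all, 0.0564% of those tested, did. At an unadjusted p under 0.05 there was 1 of the 8, Igfbp2, beside 7.69% of all tested genes, and 0 of the 8 passed under each of 11 alternative settings or tools, DESeq2 and limma included. The groups overlapped for all 8 genes, and did not for 1.55% of all genes. Igfbp2 averaged 28.6 ± 5.34 CPM in crush AAV-CNTF and 44.7 ± 13.9 CPM in crush AAV-null (SD, n = 5 each), a log2 fold change of -0.64 ± 0.19 SE (95% interval -1.05 to -0.24, p = 0.003392, edgeR adjusted p = 0.2881, exact permutation p = 0.03175). Of the 5 crush AAV-null libraries, 4 were above every crush AAV-CNTF library. The authors' deposited table gives an adjusted p of 0.2094 for it.

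Intervals show how much the other 7 could differ between the viruses. For Igf1 the log2 fold change of crush AAV-CNTF over crush AAV-null was -0.26 (95% interval -0.80 to 0.29) and for Igf1r it was -0.12 (-0.31 to 0.07), so the receptor is bounded most tightly. For Igfbp4 it was 0.66 (-0.07 to 1.38, adjusted p = 0.7044), with means of 180.0 ± 99.2 CPM in crush AAV-CNTF and 114 ± 37.0 CPM in crush AAV-null. For Igfbp7 it was 0.36 (95% interval -0.001 to 0.72, edgeR p = 0.05059, adjusted p = 0.6528, exact permutation p = 0.1825), with means of 161 ± 46.5 CPM in crush AAV-CNTF and 126 ± 21.7 CPM in crush AAV-null. The remaining values were -0.13 (-0.77 to 0.50) for Igfbp3, 0.30 (-0.15 to 0.75) for Igfbp5 and -0.28 (-0.93 to 0.37) for Igfbp6. The median over the 8 was -0.13, and over all tested genes -0.004. Crush AAV-null libraries serve here and in the comparison with sham, so a high crush AAV-null value of Igfbp2 enters both.

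**Figure D3:**
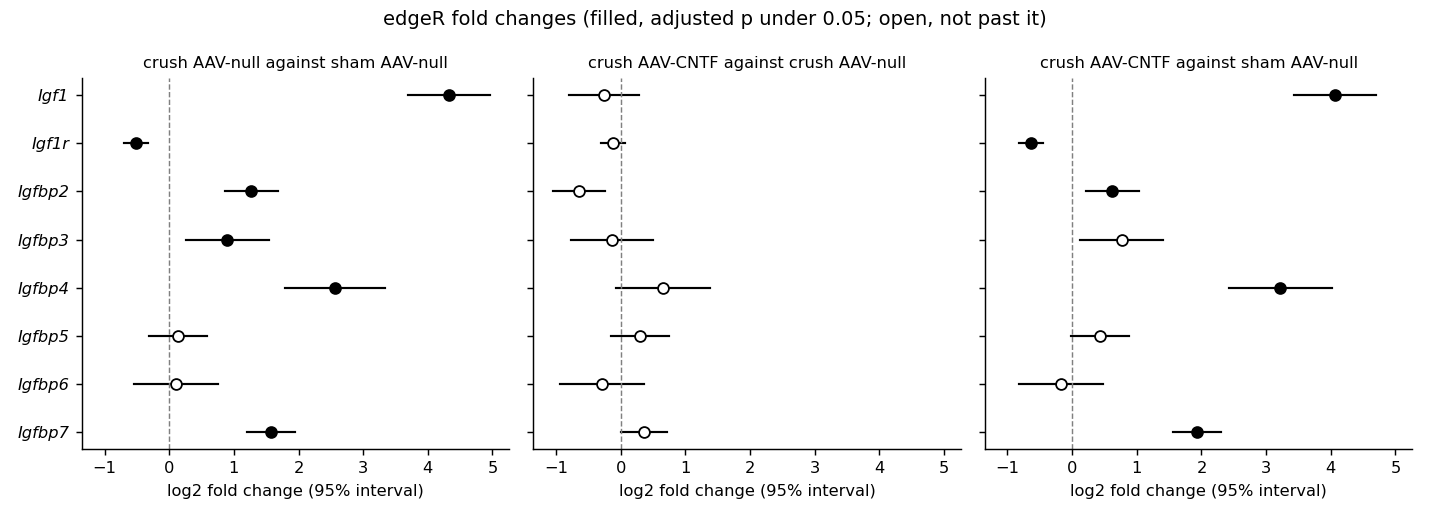
Log2 fold change with its 95% interval for the 8 genes in 3 comparisons, from the edgeR fit over 15 libraries; filled points passed an adjusted p of 0.05 and open points did not. Igf1 lies at 4.33 and 4.07 in the comparisons with sham and Igf1r at -0.51 and -0.64, while all 8 points are open between the viruses.

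Levels of different genes were compared in FPKM, which is per length. In all groups Igfbp5 had the highest mean, followed by Igfbp6 and Igfbp7: 562, 215 and 186 FPKM in crush AAV-CNTF, 455, 263 and 144 FPKM in crush AAV-null, and 366, 215 and 42.7 FPKM in sham. Igfbp5 and Igfbp6 did not overlap in crush AAV-null and did in the other groups, and Igfbp6 and Igfbp7 overlapped in both crush groups and did not in sham. The ligand held the lowest place in sham at 1.99 FPKM, the fourth in crush AAV-null at 76.0 FPKM and the fifth in crush AAV-CNTF at 49.5 FPKM. In crush AAV-CNTF Igfbp4 (52.2 FPKM), Igf1 and Igfbp3 (41.9 FPKM) overlapped, and Igfbp3 overlapped Igfbp2 (27.1 FPKM). In crush AAV-null Igf1, Igfbp3 (45.0 FPKM), Igfbp2 (43.2 FPKM) and Igfbp4 (32.8 FPKM) each overlapped their neighbour. Igf1r was lowest after crush, at 11.5 FPKM in crush AAV-CNTF and 11.4 FPKM in crush AAV-null, and did not overlap the next gene. In sham its 14.8 FPKM overlapped Igfbp2 (15.6 FPKM), which overlapped Igfbp3 (21.2 FPKM), and Igfbp4 stood below them at 6.04 FPKM. The ranges of Igfbp4 and Igf1 overlapped in sham, and the sham Igf1 level rests on the implied length of 6.87 to 6.88 kb in 3 of its libraries.

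Summed over Igfbp2 to Igfbp7, binding protein transcripts came to 1084 ± 382 FPKM in crush AAV-CNTF and 983.5 ± 93.2 FPKM in crush AAV-null, against 667 ± 158 FPKM in sham (SD, n = 5 each). All crush AAV-null libraries (827 to 1078 FPKM) were above all sham libraries (395 to 787 FPKM), while crush AAV-CNTF (678 to 1664 FPKM) overlapped both. In CPM, which is not divided by length, crush AAV-null (2756 to 3474 CPM) and sham (1853 to 3396 CPM) overlapped as well. Their log2 difference was 0.27 in CPM, against 0.60 in FPKM. The CPM sum gives long transcripts more weight: Igfbp5 averaged 2548 CPM of a mean sum of 3152 CPM in crush AAV-null. In sham it averaged 2317 of 2657 CPM. FPKM is also scaled to library depth without TMM. The median log2 fold change of all genes, crush AAV-null over sham, was 0.16 on the log2(FPKM + 1) scale and 0.005 from counts. Igfbp5, whose implied length was steady, was 1.24-fold higher in FPKM and 1.10-fold from counts. The sums are therefore unlike, and the gap between 0.27 and 0.60 does not measure the length estimate. Whether the FPKM sums stay apart after TMM scaling was not tested. Igfbp5 made up 50.7% of the FPKM sum in crush AAV-CNTF, 46.6% in crush AAV-null and 56.4% in sham, so it led in each group. The share of Igfbp7 was 17.3% in crush AAV-CNTF and 14.8% in crush AAV-null, against 6.71% in sham, and the lowest crush share (11.1%) was above the highest sham share (9.72%). Igfbp4 made up 4.75% in crush AAV-CNTF and 3.32% in crush AAV-null, against 0.898% in sham. Igfbp6 had a smaller mean share after crush, 20.6% in crush AAV-CNTF and 26.3% in crush AAV-null against 30.5% in sham, with overlapping ranges. Igfbp3 (3.99%, 4.52% and 3.11%) and Igfbp2 (2.65%, 4.39% and 2.40%) were minor in crush AAV-CNTF, crush AAV-null and sham.

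Per 100 FPKM of summed binding protein, Igf1 stood at 5.05 ± 1.93 FPKM in crush AAV-CNTF and 7.82 ± 2.72 FPKM in crush AAV-null, against 0.280 ± 0.127 FPKM in sham (SD, n = 5 each). The lowest crush library was at 2.96 and the highest sham library at 0.481, so ligand transcript rose against its carriers in every crush library, and the crush groups overlapped. The log2 difference of crush AAV-null from sham was 4.84 in FPKM and 4.16 in CPM. CPM is not divided by length and gives Igfbp5 more weight in the sum. That does not account for the larger FPKM value, since the sum itself rose more in FPKM than in CPM. Igf1 rose more in FPKM, with means 38.2-fold apart against 20.1-fold from counts. Its implied length was 6.87 to 6.88 kb in sham replicates 4, 5 and 6. These ratios are of transcripts and give no amount of free or bound protein.

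**Figure D4:**
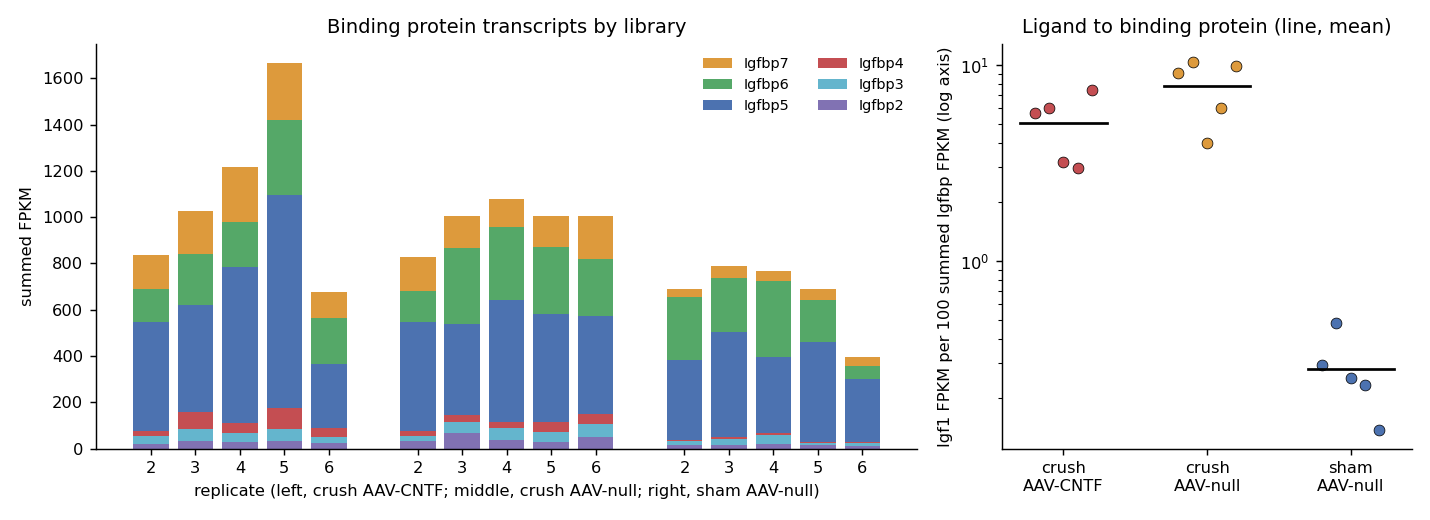
Left, FPKM of Igfbp2 to Igfbp7 stacked for each library, with crush AAV-CNTF, crush AAV-null and sham AAV-null from left to right; right, Igf1 FPKM per 100 FPKM of summed Igfbp on a log axis, with points for libraries and lines for means. Igfbp5 is the largest block by mean share in each group, and all sham ratios lie at or below 0.481 while all crush ratios lie at or above 2.96.

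Igfbp2 and Igfbp5 are neighbours on chromosome 1 and converge, with 5457 bases between their 3′ ends. They did not change alike between crush AAV-null and sham. The log2 ratio of Igfbp2 to Igfbp5 in CPM was -5.88 ± 0.59 in crush AAV-null and -6.94 ± 0.27 in sham (SD, n = 5 each), a difference of 1.07 (exact permutation p = 0.007937, two-sided). This p is the smallest that 5 against 5 allows, and tests of the ratio are outside the 24 tests of single genes. The difference follows from the values of each gene given above and is not further evidence. In crush AAV-CNTF the ratio was -6.69 ± 0.59, with a difference of -0.81 from crush AAV-null (exact permutation p = 0.07143) and of 0.25 from sham (exact permutation p = 0.4048).

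The rest of the pathway was read from lists of genes by role. Of 7 other ligands, receptors and carriers in the table, 2 were higher and 1 lower in crush AAV-null than in sham, with a median log2 fold change of 0.20. The shares over all tested genes were 14.7% higher and 12.9% lower there, and 17.0% and 14.3% in crush AAV-CNTF against sham. Igf2r, which clears IGF2 from the cell surface, averaged 109 ± 12.8 CPM in crush AAV-null and 54.9 ± 6.90 CPM in sham (log2 fold change 0.98, edgeR adjusted p = 3.81e-06). Esm1, an endothelial proteoglycan, rose (1.07, adjusted p = 0.01149) and Igfbpl1, a binding protein-like gene, fell (-0.86, adjusted p = 0.01224). In crush AAV-CNTF against sham 2 of the 7 were higher, Igf2r (1.24) and Igf2, the second IGF ligand, at 952 ± 455 CPM in crush AAV-CNTF and 346.5 ± 136 CPM in sham (1.46, adjusted p = 0.001863). Igf2 did not pass in crush AAV-null against sham (0.84, adjusted p = 0.06218) or between the viruses (0.62, adjusted p = 0.7044). Htra1 and Htra3, serine proteases that can cut binding proteins and are counted among these 7, did not pass in crush AAV-null (0.09 and 0.20, adjusted p = 0.7454 and 0.2537) or in crush AAV-CNTF (0.28 and 0.24, adjusted p = 0.1932 and 0.1484) against sham.

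A further list held 16 genes, other proteases that cut binding proteins and inhibitors of such proteases, and only 8 were in the table. Of these 8, 7 were higher in crush AAV-null than in sham, with a median log2 fold change of 2.27. In crush AAV-CNTF against sham 8 were higher, with a median of 2.11. Of all tested genes 14.7% and 17.0% were higher in these comparisons. The proteases Htra1 and Htra3, which did not pass, are not in these counts. Ctsd, a lysosomal aspartic protease, averaged 3778 ± 913 CPM in crush AAV-CNTF and 5810.0 ± 996 CPM in crush AAV-null, against 623 ± 136 CPM in sham. Plau, the urokinase plasminogen activator, was 6.99-fold higher in crush AAV-null than in sham (adjusted p = 1.39e-06), and Adam12, a metalloprotease whose human form cuts the proteins of Igfbp3 and Igfbp5, 5.54-fold (adjusted p = 5.276e-06). Timp1, an inhibitor of metalloproteases, was 6.14-fold higher in crush AAV-null than in sham (adjusted p = 1.559e-10). Mmp2 and Mmp14 also passed, and Plat, the tissue plasminogen activator, passed in crush AAV-CNTF against sham (0.39, adjusted p = 0.00325) and stood at 0.25 (adjusted p = 0.06185) in crush AAV-null against sham. The phagocyte marker Cd68 (3.24 on the log2 scale) and the fibroblast collagen Col1a1 (1.94) rose in crush AAV-null against sham as well. Of the 12 fibroblast and meningeal markers 4 were higher there and 1 lower. The part of phagocytes and fibroblasts in these changes was not tested.

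Signalling genes downstream of the receptor changed in both directions. Of 31 adaptors and PI3K, AKT and mTOR genes, 10 were higher and 6 lower in crush AAV-null than in sham, with a median log2 fold change of 0.13, and 9 were higher and 6 lower in crush AAV-CNTF than in sham. Of all tested genes 14.7% were higher and 12.9% lower in the first comparison, and 17.0% and 14.3% in the second. Among the higher ones were Grb10, an adaptor that restrains the receptor (4.48-fold in crush AAV-null over sham, adjusted p = 7.943e-05), Sh2b2, an adaptor of the insulin receptor family (3.91-fold), and Inpp5d and Pik3cd, a lipid phosphatase and a PI3K catalytic subunit known from leukocytes (2.70-fold and 2.45-fold). In crush AAV-null against sham Irs1 rose (0.51 on the log2 scale, adjusted p = 0.002874) and Irs2 fell (-0.31, adjusted p = 0.04429). In crush AAV-CNTF against sham Irs1 rose too (0.75, adjusted p = 6.549e-05), and Irs2 did not pass (-0.18, adjusted p = 0.2399). Again in crush AAV-null against sham, Akt1 rose (0.75, adjusted p = 0.0002107), while Pik3r1, the regulatory PI3K subunit, fell (-0.70, adjusted p = 4.281e-05) and so did Foxo1, a transcription factor that AKT restrains (-0.51, adjusted p = 0.0009801). Inpp5d moved with the markers of microglia and phagocytes given above. The part of those cells in its rise was not tested.

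Of 14 cell surface partners of binding proteins, 7 were higher and 1 lower (Vtn) in crush AAV-null than in sham, with a median of 0.60, and 8 were higher in crush AAV-CNTF than in sham. For this and the next list, the shares over all tested genes were 14.7% higher and 12.9% lower in crush AAV-null. In crush AAV-CNTF they were 17.0% and 14.3%. Cd93, the partner of the Igfbp7 protein, averaged 89.7 ± 25.2 CPM in crush AAV-CNTF and 62.4 ± 15.6 CPM in crush AAV-null, against 28.1 ± 5.09 CPM in sham (SD, n = 5 each). Itga5, an integrin chain bound by the Igfbp2 protein, was 2.76-fold higher in crush AAV-null than in sham (adjusted p = 6.72e-07), and Sdc1, a heparan sulfate proteoglycan, 3.39-fold (adjusted p = 9.026e-06). Of 5 growth hormone axis genes, 1 was higher in crush AAV-null than in sham, Socs2, a feedback inhibitor of the growth hormone receptor (1.84 on the log2 scale, adjusted p = 0.003379), while the receptor gene Ghr stood at -0.09 (adjusted p = 0.8466). In crush AAV-CNTF against sham Cish, a related inhibitor, passed besides Socs2 (1.79, adjusted p = 0.002516). Neither of 2 IGF mRNA binding proteins passed. Between the viruses 0 of the 67 tested genes of these 6 lists passed by edgeR, DESeq2 or limma-voom, and 9 (13.4%) had an unadjusted edgeR p under 0.05, where 7.69% of all tested genes did.

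Other cell type markers were read as lists beside these results. Over all tested genes 14.7% were higher and 12.9% lower in crush AAV-null than in sham, and list counts are to be read beside these shares. In crush AAV-null against sham, 8 of 8 markers of dividing cells and 4 of 12 of fibroblasts and meninges were higher, and 8 of 10 of astrocytes and 1 of 12 of fibroblasts and meninges (Ptgds) were lower. NG2 glia had 3 of 8 higher and 3 lower, and pericytes and smooth muscle 3 of 9 higher and 2 lower. Lists only partly in the table were Schwann cells (1 of 3 lower), neutrophils (2 of 3 higher), T and B cells (3 of 6 lower), skeletal muscle (0 of 4) and retinal neurons (1 of 5 higher, 2 lower). Muscle markers summed to 3.39 to 38.4 CPM in crush AAV-CNTF, 10.04 to 53.25 CPM in crush AAV-null and 18.2 to 193 CPM in sham. Between the viruses 0 of 101 tested marker genes passed by edgeR or limma-voom, 24 (23.8%) had an unadjusted edgeR p under 0.05 where 7.69% of all tested genes did, and 2 passed by DESeq2, Lck and the phagocyte gene Gpnmb (619 ± 193 CPM in crush AAV-CNTF and 1167 ± 345 CPM in crush AAV-null). The source cells of the 8 genes were not tested.

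Each of the 8 genes had neighbours in pattern among 11684 genes with a mean of at least 5 CPM, measured by the root mean square difference of centred log2 CPM over the 15 libraries. Igf1 was nearest to Top2a and Kif23, genes of dividing cells, and Lyz2, the macrophage lysozyme, at 0.469, 0.549 and 0.560. Top2a averaged 71.8 CPM in crush AAV-CNTF and 73.0 CPM in crush AAV-null, against 3.92 CPM in sham. Igf1r was nearest to Kidins220 (0.096), Rora (0.10) and Sptbn1 (0.102), closer than any other of the 8 genes to its neighbours. Igfbp7 was nearest to the matrix genes Bgn (0.230), Col4a1 (0.242) and Col4a2 (0.253), the collagens of basement membrane, and Igfbp4 to Sh3pxd2a (0.390), Lox (0.414) and Postn (0.421). Igfbp2 was nearest to Stard8 (0.232), Tspan6 (0.265) and Cav1 (0.276). Stard8 had a like order of means, 20.6 CPM in crush AAV-CNTF and 31.03 CPM in crush AAV-null, against 12.9 CPM in sham. Igfbp3 was nearest to Fkbp10, Stra6 and Cdc25a (0.295 to 0.337), Igfbp5 to Mia3, Podxl and Pml (0.261 to 0.276) and Igfbp6 to Clstn3, Aldh1a2 and Slc7a11 (0.287 to 0.312).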

How the data were processed

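The submitters' processing notes name Trimmomatic 0.32, STAR 2.5.3a, RSEM 1.2.31, R 3.2.3, DESeq2 and the mm10 build. Sources used here do not give the gene annotation. The protocol notes name 2 ribosomal depletion kits, without saying which libraries each was used for. The authors deposited 1 table that holds, per the file headers, the expected count of each gene per library and its FPKM. The authors' deposited log2 fold change and adjusted p-value per pair of groups were used only where named. The table holds genes that reach an FPKM of 1 in 4 or more libraries of any group, and each of the 8 genes did so in all 3 groups. Totals of 19856688 to 29558293 expected counts make counting error small beside the variation among replicates (common biological coefficient 0.371).

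Counts were rounded (13.7% to 18.3% of values were not whole) and tested in R 4.3.3 with edgeR 4.0.16: TMM, filterByExpr by group, 1 mean per group over 15 libraries, quasi-likelihood test with 12 residual degrees of freedom, Benjamini-Hochberg over 14194 genes, threshold 0.05. Log2 CPM used a prior count of 2. Exact permutation tests covered all 252 assignments of 5 against 5 libraries. Alternatives used DESeq2 1.42.0 and limma 3.58.1. The fit was tested on simulated data. Replicates differed beyond counting noise in every pair (lowest chi-square 40.7 per degree of freedom). Implied length is the expected count over FPKM and library total. Over 642 genes with a single transcript its median was 0.915 to 0.936 of the annotated length.

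The 8 genes, the pathway and marker lists and the tests were chosen with earlier results of these data known. From each pathway list the text names up to 4 genes past the threshold with the largest change and a mean of at least 5 CPM, or else the most abundant. Irs1, Irs2, Akt1, Pik3r1, Foxo1, Mmp2, Mmp14, Plat, Ghr, Htra1, Htra3, P2ry12, Tmem119, Cx3cr1, Cd68, Col1a1 and genes named within counts of 5 or fewer fall outside that rule and were chosen after their values were seen. Some list members are counted but not named. For each of the 8 genes the 3 nearest in pattern are named.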

Additional observations from a re-analysis of the deposited data

Results flagged for a closer look

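In 5 of 99 groups of 5 libraries checked, 1 library lay far from the other 4, its gap to the nearest of them divided by the group's range being above 0.71. Chance flags about 1 in 20 such groups, so this number is close to what chance gives. Sham replicate 4 had 39.23 CPM of Igfbp4, against 10.44 to 16.01 CPM in the other sham libraries. Without it, Igfbp4 remained higher in each crush group than in sham. Sham replicate 6 had a summed Igfbp level of 395.4 FPKM, against 690.2 to 787.4 FPKM in the other sham libraries, and it was also the lowest sham library in Igfbp6. Inpp5d was at 150.4 CPM in crush AAV-null replicate 3, against 111.9 to 120.1 CPM in the other libraries of that group, and at 53.15 CPM in sham replicate 4, against 42.54 to 43.7 CPM. Itga5 was at 120.1 CPM in crush AAV-null replicate 3, against 62.52 to 73.49 CPM. That library also had the highest Igf1, Igfbp2 and phagocyte marker levels of its group, and the reason was not tested.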

How the results depend on the processing

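Igf1, Igfbp2, Igfbp4 and Igfbp7 stayed higher in crush AAV-null than in sham, past the threshold, under all 11 alternative settings and tools and without each library in turn, with Igf1 between 4.14 and 5.33 on the log2 scale. Igf1r in crush AAV-null against sham was -0.34 (FPKM + 1) and -0.37 (FPKM + 0.1) under limma, past no threshold, and so it was in crush AAV-CNTF against sham, at -0.34 and -0.37 (adjusted p = 0.06034, 0.05409, 0.0565 and 0.0506 in that order). Igfbp3 in crush AAV-null against sham was 0.90 under DESeq2 and not called, and 0.71 to 1.27 without each library. In crush AAV-CNTF against sham Igfbp3 became a call at 0.87 with the replicate block, 0.96 under limma-voom, 1.09 and 1.14 on FPKM with a pseudocount of 1 and 0.1, and ran from 0.58 to 1.14 without each library. Igfbp6 in crush AAV-CNTF against sham, -0.18 and never called, turned to 0.05 under limma-voom and to 0.17 on FPKM with either pseudocount, and ran from -0.42 to 0.01 without each library. In crush AAV-null against sham Igfbp6 ran from -0.14 to 0.30 without each library. Without each library Igfbp2 in crush AAV-CNTF against sham ran from 0.54 to 0.72 and Igfbp5 from 0.19 to 0.60. The cause of these changes was not tested.

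Between the viruses the count of all genes called, 8 here, was 1 with only the 10 libraries compared, 83 under DESeq2, 5 under limma-voom, 3 on FPKM with either pseudocount, and 1 to 41 without each library (41 without crush AAV-CNTF replicate 6). None of the 8 genes was called in any of these. In CPM in place of FPKM, the log2 difference of crush AAV-null from sham was 0.27 for the summed Igfbp level (0.60 in FPKM) and 4.16 for the ratio of Igf1 to it (4.84 in FPKM). Igfbp5 weighs more in the CPM sum and FPKM is not scaled by TMM, so these are unlike sums. The ratio is nonetheless larger in FPKM, where Igf1 itself rose more than from counts.

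With the replicate number as a block the count between the viruses was 16. Deviations of same-number libraries from their group means correlated at only -0.053 to 0.113 over 15 pairs, and those of other pairs at -0.065 to 0.088. Not every library correlated best with its own number. The labels do not say what the number stands for, and a surgery day or batch shared by number was not tested. Besides that count and Igfbp3, the block changed no call of the 8 genes.

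Depth does not limit these genes after crush, while Igf1 in sham rests on 95 to 303 counts per library.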
